A study of Rattus norvegicus with 9 samples.

Results

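Transcript levels of 6 genes of the renin-angiotensin system (Agt, Ace, Agtr1a, Agtr1b, Agtrap and Mas1) and of the vasopressin receptor Avpr1a were followed in arteries of adult rats. The genes were chosen by name with earlier results of these data known. All 7 were found by symbol, each on a single line, among the 30452 lines of every count table. The 9 libraries were RNA sequencing libraries of whole arteries from offspring aged 3 to 5 months. The dams ate standard chow and drank either ordinary water (control) or 20% sucrose water (high sucrose) while pregnant. Control offspring gave mesenteric artery as replicates 1, 2 and 3 and pulmonary artery as replicates 1, 2 and 4. High-sucrose offspring gave mesenteric artery as replicates 1, 2 and 3. Strain and sex are not given in the labels. They do not tie any library to an animal or a litter, so p-values measure only the spread between these samples, which may be technical. Pulmonary arteries of high-sucrose offspring were not analysed here.

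In the renin-angiotensin system angiotensinogen, the product of Agt, is cut into angiotensin I, and the angiotensin-converting enzyme, the product of Ace, trims this to angiotensin II. In artery smooth muscle angiotensin II acts on the type 1 receptor, which couples to Gq proteins, releases calcium and makes the vessel contract. Rats and mice carry that receptor in a pair of near-identical gene copies, Agtr1a and Agtr1b. Agtrap binds the tail of the type 1 receptor and promotes its internalisation, and Mas1 encodes the receptor associated with angiotensin-(1-7), a shorter peptide with dilator actions. Avpr1a encodes the V1a receptor of vasopressin, which also couples to Gq and constricts arteries.

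Between the tissues, Avpr1a and Agtr1a, receptor genes of 2 pressor peptides, had lower levels in every pulmonary library than in any mesenteric one. Levels are in CPM, counts scaled to the same total in every library, here after correction of the totals by the trimmed mean of M-values (TMM) over all 9 libraries. Avpr1a stood at 54.1 ± 34.8 CPM in mesenteric artery of controls and at 6.62 ± 4.43 CPM in the pulmonary libraries (SD, 3 libraries per group), and Agtr1a at 60.3 ± 31.6 and 14.9 ± 8.97 CPM. For both genes every pulmonary library lay below every one of the 6 mesenteric libraries, as was the case for 4.53% of all genes tested. Neither passed the test over all genes (adjusted p = 0.333 for Avpr1a and 0.466 for Agtr1a, edgeR quasi-likelihood test with Benjamini-Hochberg adjustment). The other 5 genes overlapped between the tissues. Between high-sucrose and control mesenteric artery all 7 genes overlapped (5.99% of all genes tested did not) and none passed. Levels are compared between libraries and not between genes, because no transcript lengths were used.

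Total counts were 10388231 to 15420546 per library. The artery wall was present in all libraries, with the smooth muscle gene Acta2 at 748 to 8244 CPM, Myh11 at 1006 to 14277 CPM and the endothelial gene Pecam1 at 203 to 1064 CPM, but the mix of cells differed. Over 10 smooth muscle markers the mean log2 CPM was 9.23 to 11.04 in the mesenteric libraries, lowest in control replicate 2, and 10.08, 10.33 and 7.64 in pulmonary replicates 1, 2 and 4. Pulmonary replicate 4 also held lymphocyte markers (7 of 8 found, summed level 1468 CPM against 3.70 to 11.8 CPM in the other 8 libraries) and lung epithelium markers (6 of 8 found, 694 CPM), and pulmonary replicate 2 held 61.5 CPM of lung epithelium markers. Cardiac muscle markers (8 of 8 found) summed to 22026 CPM in pulmonary replicate 2, at least 1083 CPM in the other pulmonary libraries and at most 110.0 CPM in the mesenteric ones. Their mean log2 CPM was 2.10, 10.75 and 7.22 in pulmonary replicates 1, 2 and 4 and −0.20 to 1.04 in the mesenteric libraries. By this mean replicate 1 was much nearer to the mesenteric libraries than to the other pulmonary ones. Mitochondrial genes took 27.5% of the counts of pulmonary replicate 4 and 13.0% to 20.9% of those of the other 8 libraries. Values on pulmonary artery that rest on replicate 2 or 4 are also given without it. In whole tissue, fewer cells of a type and less RNA per cell cannot be told apart.

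**Figure D1:**
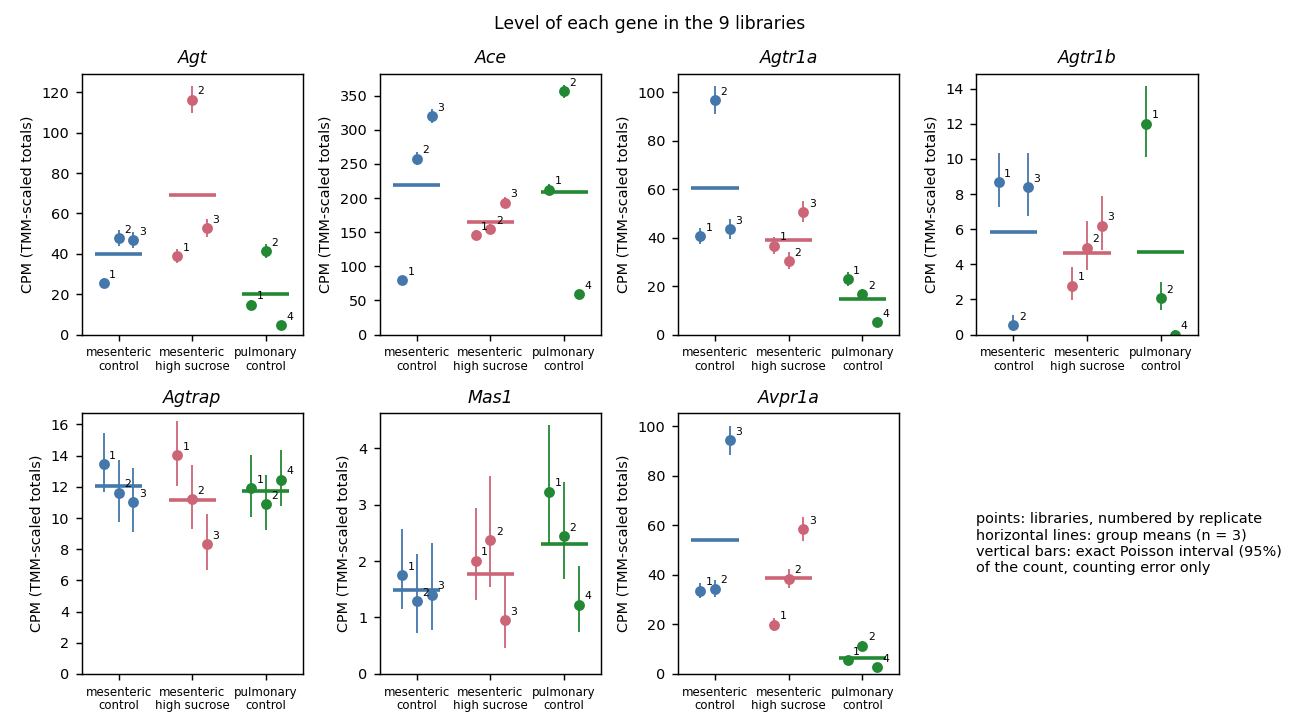
Level of each gene in CPM on TMM-scaled totals (vertical axes, from 0) in the 9 libraries, by group. Points are libraries numbered by replicate, horizontal lines are group means, and vertical bars are exact Poisson intervals of the count (counting error only). Avpr1a and Agtr1a are lower in all 3 pulmonary libraries than in all 6 mesenteric ones, and for the other genes the groups overlap.

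Avpr1a, the vasopressin V1a receptor, had the largest difference of the 7 genes between the tissues. In mesenteric artery of controls it was counted 500, 399 and 1009 times in replicates 1, 2 and 3, or 33.7, 34.3 and 94.3 CPM. In high-sucrose mesenteric artery the levels were 19.8, 38.5 and 58.4 CPM in replicates 1, 2 and 3. In pulmonary artery 68, 160 and 43 counts gave 5.63, 11.5 and 2.78 CPM in replicates 1, 2 and 4. The highest pulmonary library, replicate 2, thus stayed below the lowest mesenteric one, high-sucrose replicate 1. Of all 14315 genes tested in this comparison, 4.53% were lower in all 3 pulmonary libraries than in all 6 mesenteric ones, and 7.59% lower than in the 3 mesenteric controls.

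The log2 fold change of Avpr1a in pulmonary against mesenteric artery of controls was −3.04 ± 0.66 (SE), an 8.23-fold lower level with a 95% interval of 2.73-fold to 24.8-fold. Its p of 0.0030 ranked 127 among the 14315 genes, and the adjusted p of 0.333 by edgeR did not pass 0.05. In the same test 0.0140% of genes passed, so that few genes of any kind did. DESeq2, another count test, called 408 genes (2.93% of those it tested), Avpr1a among them (log2 fold change −3.02 ± 0.68 SE, adjusted p = 7.6e-04), and it was the sole call among the 7. Across the alternatives Avpr1a had an adjusted p from 7.6e-04 to 0.945.

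Avpr1a was low in each of the unlike pulmonary libraries. Without pulmonary replicate 4 the log2 fold change was −2.66 (edgeR adjusted p = 0.231), without replicate 2 it was −3.69 (0.390), and with replicate 1 as the lone pulmonary library it was −3.28 (0.589). Marker lists of the wall were also lower on balance in pulmonary artery: 8 of 10 smooth muscle markers (summed 3977 to 24784 CPM against 12892 to 46547 CPM in the mesenteric controls), 9 of 10 endothelial and 8 of 8 fibroblast markers had the lower mean, with median log2 fold changes of −0.81, −0.90 and −0.50, and none of these markers was at 0 in any library. Pulmonary replicate 4 was the lowest library of each list. Fibroblast markers summed to 7601, 6448 and 1513 CPM in pulmonary replicates 1, 2 and 4, against 7214 to 13454 CPM in the mesenteric controls. Endothelial markers summed to 1778, 2279 and 783 CPM in the same order, against 1606 to 3563 CPM. Pulmonary replicates 1 and 2 had smooth muscle scores within the mesenteric range, and their Avpr1a levels were below all 6 mesenteric libraries. The score averages unlike markers. In these replicates Actg2 was at 554 and 846 CPM, against at least 1320 CPM in the mesenteric libraries. Myocd went the other way, at 106 and 102 CPM against at most 74.9 CPM. With the smooth muscle score as a covariate the log2 fold change was −2.68 (edgeR adjusted p = 0.173). The part of muscle content in the Avpr1a level was not tested. Mesenteric control replicate 3, the highest library, carried part of the size: without it the value was −2.38 (0.945).

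Agtr1a, the main type 1 angiotensin receptor of rat vessels, showed the same order of tissues with a smaller difference. The mesenteric controls were at 40.7, 96.8 and 43.4 CPM in replicates 1, 2 and 3, from 605, 1125 and 465 counts. The high-sucrose mesenteric libraries were at 36.6, 30.4 and 50.5 CPM in replicates 1, 2 and 3. The pulmonary libraries were at 22.9, 16.6 and 5.16 CPM in replicates 1, 2 and 4, from 276, 231 and 80 counts. Control replicate 2 was the highest library, and the mesenteric and pulmonary ranges did not meet, with 30.4 CPM as the lowest mesenteric and 22.9 CPM as the highest pulmonary value.

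Between the tissues the log2 fold change of Agtr1a was −2.04 ± 0.62 (SE), a 4.11-fold lower level (95% interval 1.48-fold to 11.5-fold), with an unadjusted p of 0.0143 and an adjusted p of 0.466 by edgeR. DESeq2 gave an adjusted p of 0.0574, so the gene missed the threshold there as well. Without pulmonary replicate 4 the log2 fold change was −1.62, and with replicate 1 as the lone pulmonary library it was −1.43 (edgeR adjusted p = 0.288 and 0.898). With the smooth muscle score as a covariate it was −2.02. Mesenteric control replicate 2, with the highest Agtr1a level, had the lowest smooth muscle score of the 6 mesenteric libraries (9.23) and the highest summed fibroblast markers (13454 CPM over 8 genes, against 5665 to 7678 CPM in the other 5). Dcn alone made up 9216 CPM of that sum. The mean log2 CPM of the 8 genes was 9.33 there and 8.19 to 9.00 in the other 5. Among the controls Pdgfra, Dcn, Lum, Dpt and Mfap5 were highest in control replicate 2. Pi16 and Clec3b were lowest there, and Col1a1 was lower there than in replicate 1. The part of muscle and fibroblast content in the Agtr1a level was not tested, and without this library the tissue difference was −1.50 (edgeR adjusted p = 0.766).

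**Figure D2:**
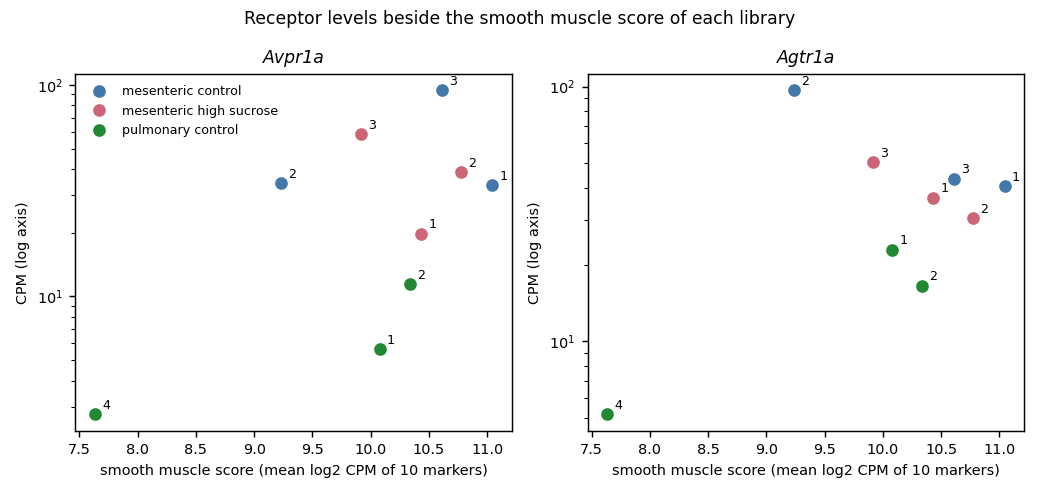
Level of Avpr1a (left) and Agtr1a (right) in CPM on a log axis against the smooth muscle score, the mean log2 CPM of 10 marker genes, with libraries numbered by replicate. Pulmonary replicates 1 and 2 have scores of 10.08 and 10.33, between those of the mesenteric libraries, and lie below the mesenteric points in both panels, while pulmonary replicate 4 has the lowest score, 7.64.

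The sequences before the start sites of Avpr1a, Agtr1a and Agtr1b are shown because the first pair were lower in every pulmonary library, while the groups of the near-identical copy Agtr1b overlapped. RefSeq start sites were matched by symbol for 6 of the 7 genes, in build GRCr8, which is not the build named for the counts (rn7). The 250 bases before the start are given 5′ to 3′ on the strand of the gene, from chr7:59999493-59999742 (plus strand), chr17:34435433-34435682 (minus strand) and chr2:104849263-104849512 (minus strand). Capitals mark matches on either strand to TATAAA, the core of the TATA box, and to GGGCGG, the core of the GC box bound by Sp1.
Avpr1a: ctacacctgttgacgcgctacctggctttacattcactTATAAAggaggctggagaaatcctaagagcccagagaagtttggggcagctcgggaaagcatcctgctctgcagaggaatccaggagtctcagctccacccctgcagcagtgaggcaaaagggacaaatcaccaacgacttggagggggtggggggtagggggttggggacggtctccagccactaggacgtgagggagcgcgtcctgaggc
Agtr1a: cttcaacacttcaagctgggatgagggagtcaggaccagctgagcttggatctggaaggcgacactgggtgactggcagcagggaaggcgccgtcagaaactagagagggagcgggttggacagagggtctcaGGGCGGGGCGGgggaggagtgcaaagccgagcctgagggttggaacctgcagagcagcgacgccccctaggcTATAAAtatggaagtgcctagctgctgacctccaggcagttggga
Agtr1b: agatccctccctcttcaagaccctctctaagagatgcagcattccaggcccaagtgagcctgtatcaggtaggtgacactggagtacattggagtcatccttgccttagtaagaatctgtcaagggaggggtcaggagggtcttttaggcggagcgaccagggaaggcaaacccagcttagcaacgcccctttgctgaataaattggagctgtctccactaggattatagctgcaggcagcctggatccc
Agtr1a had a TATAAA match beginning 45 bases before the start site and 2 overlapping GGGCGG matches beginning 117 and 112 bases before it. Avpr1a had 1 TATAAA match, 212 bases before the start site, and no GGGCGG, and Agtr1b had neither. Of all 33465 windows of this length 12.9% held TATAAA and 30.5% held GGGCGG. The CArG box, the motif of serum response factor in smooth muscle genes, was in 1.50% of windows and in none of these 3. Such matches describe the letters of the windows and are not evidence of binding.

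Agtr1b, the other copy of the type 1 receptor, spread widely within both control groups. It was counted 129, 6 and 90 times in mesenteric control replicates 1, 2 and 3 (8.68, 0.52 and 8.41 CPM) and 36, 52 and 65 times in high-sucrose replicates 1, 2 and 3 (2.78, 4.94 and 6.21 CPM). Pulmonary replicates 1, 2 and 4 held 145, 29 and 0 counts (12.0, 2.08 and 0 CPM). The 0 in replicate 4 allows up to 3 counts, or 0.194 CPM, by counting error alone, while the exact Poisson bar in the plot of levels ends at 0.238 CPM. The highest and the lowest of all 9 libraries were thus both pulmonary, and the 2 lowest libraries, pulmonary replicate 4 and mesenteric control replicate 2, were also those with the lowest smooth muscle scores (7.64 and 9.23). Its log2 fold change between the tissues was −0.32 ± 1.62 (SE, edgeR adjusted p = 0.960), with a 95% interval from −4.20 to 3.56, and the dispersion of Agtr1b was at the 99.7th percentile of the genes tested. It was −2.49 without pulmonary replicate 1 and 0.26 without replicate 4, so that its sign depended on the library left out. With the smooth muscle score as a covariate it turned to 1.37, and in the sucrose comparison from −0.32 to 0.24, neither past the test.

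As a share of all type 1 receptor counts, Agtr1b made up 17.6%, 0.53% and 16.2% in mesenteric control replicates 1, 2 and 3, with Clopper-Pearson 95% intervals of 14.9 to 20.5%, 0.19 to 1.15% and 13.2 to 19.6%. The share was 7.05%, 14.0% and 10.9% in high-sucrose replicates 1, 2 and 3. In pulmonary replicates 1 and 2 it was 34.4% (29.9 to 39.2%) and 11.2% (7.60 to 15.6%), and 0 of 80 counts in replicate 4 allow a share of up to 3.75% when 3 counts are taken as the limit, with a Clopper-Pearson upper bound of 4.51%. Libraries of a group therefore differed beyond counting error, and the shares of the 3 groups overlapped. The copies are close in coding sequence, and how shared reads were counted is not given in the sources used here, so the split between them is uncertain. The intervals cover counting error only, since the reads carry no molecular identifiers.

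**Figure D3:**
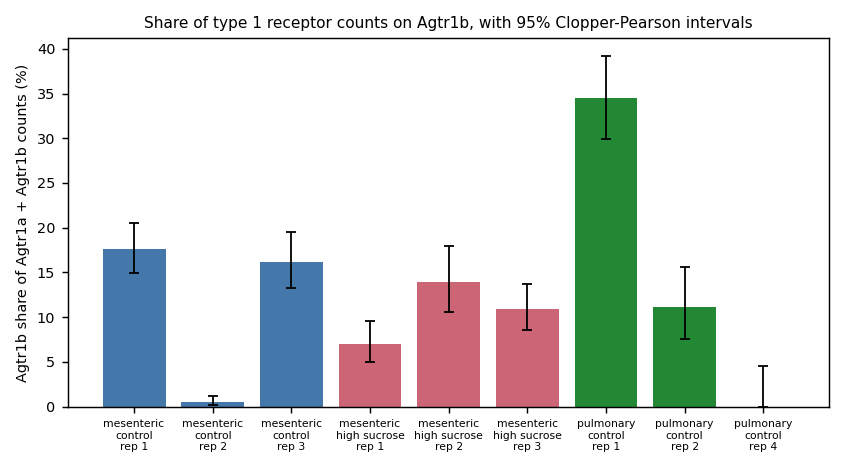
Share of the summed Agtr1a and Agtr1b counts that fell on Agtr1b, in percent, in each library, with Clopper-Pearson 95% intervals (counting error only). The share runs from 0 of 80 counts in pulmonary replicate 4 to 34.4% in pulmonary replicate 1, and mesenteric control replicate 2 stands at 0.53% beside 17.6% and 16.2% in the other control libraries.

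Agt, which encodes angiotensinogen and is expressed in liver and also in fat and fibroblasts around vessels, was at 25.4, 47.6 and 46.7 CPM in mesenteric control replicates 1, 2 and 3. It reached 38.7, 116 and 52.6 CPM in replicates 1, 2 and 3 of the high-sucrose group. The pulmonary libraries were at 14.7, 41.4 and 4.65 CPM in replicates 1, 2 and 4. High-sucrose replicate 2 stood well above the other 8 libraries and pulmonary replicate 4 below them. The summed adipocyte markers (8 of 8 found, none at 0 in any library) were 681 to 1083 CPM in the controls and 782, 1682 and 1405 CPM in replicates 1, 2 and 3 of the high-sucrose group, and 6 of the 8 had the higher mean there. Fibroblast markers went the other way, with 8 of 8 lower in the high-sucrose group (median log2 fold change −0.42). In the pulmonary libraries the summed adipocyte markers were 1050, 1135 and 209 CPM in replicates 1, 2 and 4. The library with most Agt also had most adipocyte marker RNA and the library with least Agt had least. High-sucrose replicate 3 was next to the highest in both. Pulmonary replicate 1 differed, with less Agt than mesenteric control replicate 1 (14.7 against 25.4 CPM) and more adipocyte marker RNA (1050 against 681 CPM). The part of fat and fibroblasts in the Agt level was not tested.

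The high-sucrose group had the higher mean of Agt, 69.2 ± 41.4 CPM beside 39.9 ± 12.6 CPM among controls (SD, n = 3 each), with overlapping libraries. Its log2 fold change was 0.80 ± 0.45 (SE, edgeR adjusted p = 1.00, 95% interval −0.27 to 1.88), and it was 0.21 without high-sucrose replicate 2. Between pulmonary and mesenteric artery of controls it was −1.0 ± 0.73 (SE, edgeR adjusted p = 0.713), −2.06 without pulmonary replicate 2 and −0.51 without pulmonary replicate 4.

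Ace, the converting enzyme, sits on the surface of endothelium and is found in other cells of the wall. Its levels were 79.9, 258 and 320 CPM in mesenteric control replicates 1, 2 and 3, and 146, 154 and 193 CPM in replicates 1, 2 and 3 of the high-sucrose group. They were 212, 356 and 59.0 CPM in pulmonary replicates 1, 2 and 4. The controls and the pulmonary libraries both spread widely, and the high-sucrose libraries lay inside the control range. For high sucrose the log2 fold change was −0.41 ± 0.47 (SE, edgeR adjusted p = 1.00), −0.81 without control replicate 1 and −0.04 without control replicate 3. Between the tissues it was −0.09 ± 0.74 (edgeR adjusted p = 0.974), and 0.37 without pulmonary replicate 4. Over the 10 endothelial markers the summed level was 1606 to 3563 CPM in the mesenteric controls and 1778, 2279 and 783 CPM in pulmonary replicates 1, 2 and 4. In the high-sucrose group it was 2528, 1794 and 4538 CPM in replicates 1, 2 and 3. The lowest Ace was in the library with the lowest summed endothelial markers among the mesenteric controls and the pulmonary libraries, but not in the high-sucrose group. Single markers differed in this. Among the controls Kdr and Emcn were lowest in replicate 3, which had the most Ace, and the other markers in replicate 1. In pulmonary artery Cdh5, Kdr, Emcn, Egfl7 and Esam were lowest in replicate 1, and Pecam1, Vwf, Tek, Tie1 and Nos3 in replicate 4. The part of endothelium in the Ace level was not tested.

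Agtrap, the receptor-binding protein, had the narrowest range of the 7 genes relative to its level. It was at 13.5, 11.6 and 11.0 CPM in mesenteric control replicates 1, 2 and 3, and at 14.0, 11.2 and 8.31 CPM in those of the high-sucrose group. In pulmonary replicates 1, 2 and 4 it was at 11.9, 10.9 and 12.5 CPM, so that pulmonary replicate 4, the lowest library for Agt, Ace, Agtr1a, Agtr1b and Avpr1a, was the highest pulmonary library here. Its log2 fold change was −0.10 ± 0.25 (SE, 95% interval −0.69 to 0.50) for high sucrose and −0.03 ± 0.27 (−0.68 to 0.63) between the tissues, with edgeR adjusted p of 1.00 and 0.979. These intervals leave room for a difference of up to 1.62-fold in the mesenteric and 1.60-fold in the tissue comparison.

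Mas1, the receptor of the dilator peptide, had few counts. It had 26, 15 and 15 counts in mesenteric control replicates 1, 2 and 3, 26, 25 and 10 in those of the high-sucrose group, and 39, 34 and 19 in pulmonary replicates 1, 2 and 4. That gave 1.48 ± 0.24, 1.78 ± 0.74 and 2.30 ± 1.01 CPM for the 3 groups in that order (SD, n = 3 per group). Pulmonary replicates 1 and 2 were the highest libraries, at 3.23 and 2.44 CPM, and replicate 4 lay among the mesenteric ones at 1.23 CPM. Between the tissues its log2 fold change was 0.62 ± 0.50 (SE, edgeR adjusted p = 0.737), 0.93 without pulmonary replicate 4, 0.57 without replicate 2 and 0.30 without replicate 1, and for high sucrose it was 0.27 ± 0.47 (adjusted p = 1.00).

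The effect of prenatal sucrose on mesenteric artery, the question named in the series' design, was within the spread between libraries for all 7 genes. Agtr1a had a mean of 39.2 ± 10.3 CPM in the high-sucrose group against 60.3 ± 31.6 CPM in control, and Avpr1a 38.9 ± 19.3 against 54.1 ± 34.8 CPM (SD, n = 3 each). Their log2 fold changes were −0.62 ± 0.39 and −0.46 ± 0.53 (SE), each with an edgeR adjusted p of 1.00. Each rested on 1 control library: without control replicate 2 Agtr1a was at −0.08, and without control replicate 3 Avpr1a was at 0.20. Without high-sucrose replicate 3 Avpr1a was at −0.89. Agtr1b stood at −0.32 ± 0.84 (SE), with a 95% interval from −2.31 to 1.67. A log2 fold change below 0 was found for 5 of the 7 genes and for 49.7% of all genes, and the median log2 fold change was −0.32, beside 0.0024 over all 13995 genes tested. In this comparison 0% of genes passed edgeR, which called 0 of 13995 with 279 at an unadjusted p under 0.05, 0 of the 7 among these. DESeq2 called 3 genes (0.0214%) and limma-voom 0, none of them among the 7, and 5.99% of genes had groups that did not overlap against 0 of the 7.

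**Figure D4:**
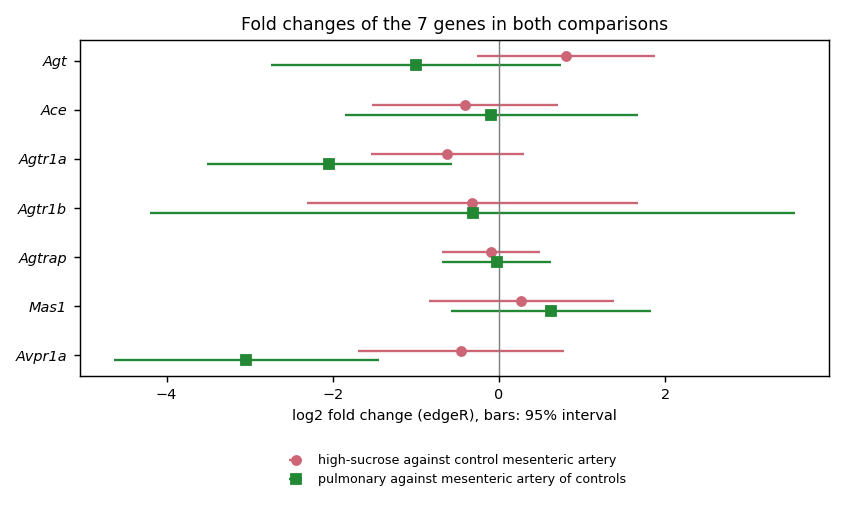
Log2 fold change of each gene by edgeR (horizontal axis) with its 95% interval, for high-sucrose against control mesenteric artery (circles) and pulmonary against mesenteric artery of controls (squares). The intervals of Avpr1a and Agtr1a between the tissues do not reach 0, though neither passed after adjustment, and the remaining intervals all include 0.

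For the order of the 3 groups, Avpr1a and Agtr1a had their highest mean in control mesenteric artery, then in high-sucrose mesenteric artery, then in pulmonary artery. The libraries of the first step overlapped and those of the second did not. The second step sets high-sucrose mesenteric against control pulmonary artery, where tissue and prenatal diet differ together, and it was not tested. For Agt, Ace, Agtr1b, Agtrap and Mas1 every pair of groups overlapped, so no order of levels stood beyond the spread. Both comparisons share the mesenteric controls. In the tissue comparison 6 of the 7 genes had a lower mean in pulmonary artery (45.5% of all genes tested did), with a median log2 fold change of −0.32, beside 0.06 over all genes. An unadjusted p under 0.05 with a lower level was found for 2 of the 7 and for 4.30% of all genes.

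The rest of the pathway was followed through 5 further lists with 62 genes, of which 56 were found by symbol and 42 were tested in each comparison. None of the 42 passed edgeR or DESeq2 in either comparison. Between the tissues 3 of the 42 had an unadjusted p under 0.05, a share close to that of all genes (8.53%), and 6 of the 42, 3 in each direction, had groups that did not overlap (14.0% of all genes). In the sucrose comparison 0 of the 42 had an unadjusted p under 0.05 (1.99% of all genes). Agtr2, Atp6ap2, Avpr2, Kng2 and Tsc22d3 were among those not found by symbol and were not analysed here.

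The peptide hormones that act on the vasopressin and oxytocin receptors were at or near 0 counts in the arteries themselves. Avp, the gene of vasopressin, had 0 to 3 counts per library, and Oxt, the gene of oxytocin, 0 or 1. Of the other vasopressin receptors, Avpr1b had 1 count in pulmonary replicate 1 and 0 in the other 8 libraries. Oxtr, the Gq-coupled oxytocin receptor, stood at 3.81 ± 2.10 CPM in mesenteric controls, 3.23 ± 1.32 CPM with high sucrose and at 0.85 ± 0.92 CPM among the pulmonary libraries (SD, n = 3 each). Its log2 fold change between the tissues was −2.18 ± 1.20 (SE, edgeR adjusted p = 0.641), with overlapping libraries and 0 counts in pulmonary replicate 4, without which it was −1.58.

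Among the other angiotensin genes, 11 of 17 were tested, 8 with a higher and 3 with a lower mean in pulmonary artery. Igf2r, the receptor of mannose-6-phosphate, was at 67.8, 60.8 and 74.3 CPM in mesenteric control replicates 1, 2 and 3 and at 121, 302 and 77.3 CPM in pulmonary replicates 1, 2 and 4. The groups did not overlap (6.41% of all genes tested were higher in this way), and the log2 fold change was 1.29 ± 0.50 (SE, edgeR adjusted p = 0.552). It was 0.55 without pulmonary replicate 2, the highest library, and 1.64 without replicate 4. Prcp, a carboxypeptidase that cuts angiotensin II, had a log2 fold change of −0.79 and Thop1, a peptidase that forms angiotensin-(1-7), of 1.10 (edgeR adjusted p = 0.643 and 0.646). Thop1 was at 35.4 CPM in pulmonary replicate 4 and at 7.21 and 10.7 CPM in replicates 1 and 2, and its sign turned to −0.25 with replicate 1 as the lone pulmonary library. Lnpep, the aminopeptidase that binds angiotensin IV and cuts oxytocin and vasopressin, was near the same mean in all groups: 196 ± 50.4, 209 ± 54.7 and 213 ± 88.8 CPM in control mesenteric, high-sucrose mesenteric and pulmonary artery (SD, n = 3 per group). In the sucrose comparison the 3 genes of this list with the smallest p were Cma1, the mast cell chymase (log2 fold change 2.02, from 0.72 ± 0.47 CPM in the controls and 2.89 ± 2.19 CPM with high sucrose, SD, n = 3 each), Thop1 (0.47) and Ctsd, cathepsin D (−0.23), all with an edgeR adjusted p of 1.00. Cma1 had 4, 8 and 13 counts in control and 5, 47 and 40 in high-sucrose replicates 1, 2 and 3, with overlapping groups. Mast cell markers (7 of 7 found) summed to 5.04 to 17.6 CPM in the controls and 8.10 to 17.4 CPM with high sucrose. The part of mast cells in the Cma1 level was not tested.

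Bradykinin is degraded by the converting enzyme. Of the 7 listed kinin genes 2 were tested, and the bradykinin receptor Bdkrb2 had the smaller p between the tissues. It was at 21.0 ± 4.41 CPM in mesenteric artery of controls and 9.24 ± 4.48 CPM in the pulmonary one (SD, n = 3 each), a log2 fold change of −1.19 ± 0.45 (SE, edgeR adjusted p = 0.551) with no overlap, and −0.83 without pulmonary replicate 4. In the sucrose comparison it stood at 0.39. Cpm, a carboxypeptidase that trims kinins, had a log2 fold change of 2.31 between the tissues (edgeR adjusted p = 0.597) and 0.06 in the sucrose comparison. Its level was 15.7 CPM in pulmonary replicate 4 and 2.15 and 1.93 CPM in replicates 1 and 2, and without replicate 4 the log2 fold change was 0.60.

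All 21 genes of receptor coupling and desensitisation were tested, 9 higher and 12 lower in pulmonary artery with a median log2 fold change of −0.13. Rgs2, which shortens Gq signals, had a log2 fold change of −1.53 (382 ± 257 against 132 ± 70.9 CPM, SD, n = 3 per group), Arhgef1, the RhoA activator driven by angiotensin II, of 1.13 and Arrb2, a beta-arrestin, of 1.22, with edgeR adjusted p of 0.589, 0.596 and 0.609. Arhgef1 was at 462 CPM in pulmonary replicate 4 and at 181 and 153 CPM in replicates 1 and 2. Arrb2 was at 71.9 CPM in pulmonary replicate 4, the library with lymphocyte markers, and at 20.7 and 16.2 CPM in replicates 1 and 2. Without replicate 4 the log2 fold changes were 0.44 for Arhgef1, 0.23 for Arrb2 and −1.19 for Rgs2. In the sucrose comparison 13 were higher and 8 lower with a median of 0.15, and those with the smallest p were Gna11, a Gq family subunit (0.25), Arrb2 (−0.29) and Plcb4, a phospholipase C (0.30).

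In the mineralocorticoid arm, through which aldosterone acts, 7 of 12 genes were tested. Hsd11b1, the enzyme that regenerates active glucocorticoid, was at 54.6, 78.8 and 49.2 CPM in mesenteric control replicates 1, 2 and 3 and at 14.3, 17.1 and 37.5 CPM in pulmonary replicates 1, 2 and 4. The groups did not overlap, with a log2 fold change of −1.39 ± 0.44 (SE, edgeR adjusted p = 0.493), −1.95 without pulmonary replicate 4 and −1.23 without replicate 2. Sgk1, a kinase induced by the mineralocorticoid receptor, had a log2 fold change of −1.06 and Scnn1b, a sodium channel subunit, of 0.79. In the sucrose comparison Nr3c2, the mineralocorticoid receptor, had 41.8 ± 4.64 CPM among controls and 33.1 ± 4.68 CPM with high sucrose (SD, n = 3 each), a log2 fold change of −0.32 (edgeR adjusted p = 1.00). Scnn1a and Scnn1b stood at 0.56 and 0.57.

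**Figure D5:**
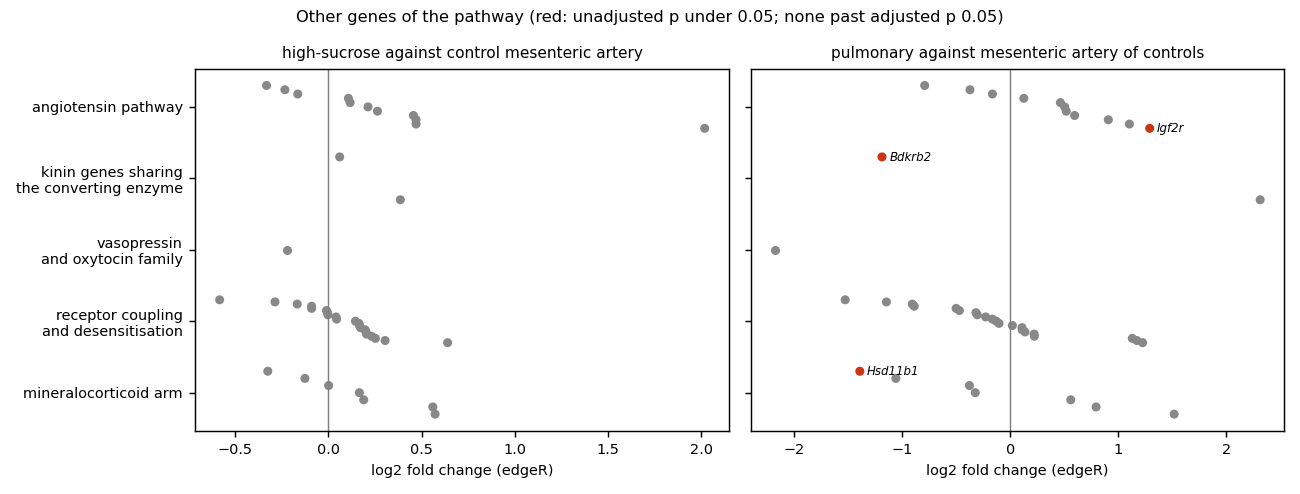
Log2 fold change by edgeR (horizontal axis) of the 42 tested genes of 5 pathway lists (rows), for high-sucrose against control mesenteric artery (left) and pulmonary against mesenteric artery of controls (right). Each point is a gene, and the named red points, Igf2r, Bdkrb2 and Hsd11b1, had an unadjusted p under 0.05 in the tissue comparison, with no gene past the threshold after adjustment.

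The genes whose levels over the 9 libraries ran most like those of the 6 members above a mean log2 CPM of 1 were listed by Pearson r of log2 CPM among 11233 genes. As the highest of so many, these values are a description, and the libraries share their groups and their differences in cell content. Nearest to Avpr1a were Fosl2, a partner of Jun in the AP-1 transcription factor (r = 0.98), Il15, a cytokine (0.95), and Pcsk5, a proprotein convertase (0.95). Nearest to Agtr1a were Arhgap29, a GTPase-activating protein (r = 0.99), Zeb2, a transcription factor (0.98), and Fmnl2, a formin (0.98). Nearest to Agt were Hspa12a, Cfd, the adipocyte protease adipsin, and Abcd2, a peroxisomal transporter of fat cells (r = 0.97, 0.97 and 0.96). The nearest to Ace was Dock4 (0.93), to Agtr1b Mob2 (0.98) and to Agtrap Arfip2 (0.91, and 0.46 without the 2 libraries farthest from the median of Agtrap). Among the 7 genes themselves the pair with the highest r was Agtr1a and Avpr1a (0.81), followed by Agt and Avpr1a (0.80).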

How the data were processed

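For every library the authors deposited raw gene counts in a file of its own, whole numbers with no normalization. Poly(A) RNA was enriched with oligo(dT) beads and the second strand was marked, per the labels' protocols. The genome build is rn7, per the submitters' processing notes, although many feature names in the files are of a kind usual for an earlier rat assembly. Which aligner, counter and gene models were used, and whether strand was, is not given in the sources used here, so reads shared by gene copies or antisense transcripts cannot be told apart.

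Groups came from the sample titles. Each line of a table was a feature of its own. Genes were tested in 2 comparisons of 6 libraries each by quasi-likelihood in edgeR 4.0.16 (R 4.3.3), with TMM factors, filterByExpr and robust dispersions, and 2-sided p-values were adjusted by Benjamini-Hochberg over all genes tested (threshold 0.05). All 7 members passed the filter in both. A standard error is the size of the log2 fold change over the root of its F value. Correlations and marker scores used log2 CPM with a prior count of 2. The fit was tested on simulated counts with the dispersions of these data. Between the tissues it called 2% of genes changed 2-fold, 20% of those changed 4-fold and 66% of those changed 8-fold, with 7 false calls. In the sucrose comparison it called 8% of genes changed 2-fold, 67% of those changed 4-fold and 94% of those changed 8-fold, with 12 false calls. No library repeated another of its group (chi-square 42.5 to 312 per degree of freedom). 

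The members and lists were chosen with earlier results of these data known. Named genes are the 7 members, 9 key pathway genes, the 3 genes of smallest p in each pathway list, and the 3 genes most like each member, and some of the listed genes are not reported here. Alternatives were other scaling factors, DESeq2 1.42.0, limma-voom (limma 3.58.1), other filters, 1 fit over all 9 libraries, a block for the replicate number, a smooth muscle covariate and libraries left out.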

Additional observations from a re-analysis of the deposited data

How the results depend on the processing

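No member changed its side of the threshold under any alternative except Avpr1a between the tissues, which DESeq2 called. The count of genes called between the tissues was 2 by edgeR, and 408 by DESeq2 (1 member), 33 by limma-voom, 38 with all 9 libraries in 1 fit, 36 with the replicate block, 18 with the smooth muscle covariate, 0 with pulmonary replicate 1 as the lone pulmonary library (assumed to vary like the mesenteric ones) and 0 to 22 with 1 library left out, 22 of them without pulmonary replicate 4. Between high-sucrose and control mesenteric artery DESeq2 called 3 genes, and the other alternatives 0. The causes were not tested.

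Values that turned sign were all of genes that had not passed. Between the tissues Ace was at 0.32 by limma-voom and 0.92 with the replicate block, Agtr1b at 1.07 with the block, 1.37 with the covariate and 1.01 with pulmonary replicate 1 as the lone pulmonary library, and Thop1 at −0.25 with that library. In the sucrose comparison Agtr1b was at 0.10 with the block and 0.24 with the covariate. With 1 library left out, the tissue values ran from −0.71 to 0.37 for Ace, −2.49 to 0.26 for Agtr1b, −0.10 to 0.036 for Agtrap and −0.25 to 0.36 for Lnpep. The sucrose values ran from −0.86 to 0.072 for Agtr1b, −0.28 to 0.062 for Agtrap, −0.89 to 0.20 for Avpr1a, −0.062 to 0.72 for Bdkrb2, −0.26 to 0.64 for Cpm, −0.12 to 0.26 for Lnpep, −0.60 to 0.13 for Oxtr, −0.069 to 0.85 for Scnn1b and −0.0058 to 0.73 for Thop1. With 1 library left out, Avpr1a between the tissues ran from −3.69 to −2.38 and Agtr1a from −2.48 to −1.50.

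The labels do not say whether samples with the same replicate number were paired. The deviations from group means of same-numbered mesenteric libraries correlated at 0.20, −0.30 and 0.11. Those of mesenteric and pulmonary replicates 1 and 2 correlated at 0.17 and −0.17. Differences in cell content enter these values as well, so they cannot decide whether samples were paired. With the replicate block Avpr1a between the tissues was at −2.09 (edgeR adjusted p = 0.128). CPM on totals without mitochondrial genes moved 4 of 21 group means by more than their SD (Ace with high sucrose to 198, Agtrap in mesenteric controls to 14.3 and in pulmonary artery to 15.0, and Mas1 in mesenteric controls to 1.75), and CPM on raw totals none. The stricter filter left no value for Agtr1b between the tissues. Counts of Mas1 and Avp were too low for small differences to be seen.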
